A study of Homo sapiens with 12 samples.

Results

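The genes described here are 32 that have been reported as targets of the microRNA miR-122 in liver and other cells, among 58735 genes in the count table. They were taken by name: each of the 32 symbols matched 1 Ensembl gene identifier in GENCODE 29. The sheddases ADAM10 and ADAM17 were left out of the set. All 32 passed the filter on low counts and were tested with 15471 genes in all. The cells were macrophages of THP-1, an established line from a human monocytic leukaemia. In the miR-122-5p group, 6 libraries came from cells transfected with a miR-122-5p mimic, a synthetic form of the microRNA, at 30 nM for 24 h. In the control group, 6 libraries came from cells that received a control miRNA mimic at the same dose. After a rest, all cells of both groups received lipopolysaccharide (LPS) for 4 h, so neither group holds unstimulated or untransfected cells. The labels name no separate cultures behind the 6 libraries, so each p-value reflects the spread among libraries alone, which may be technical. In bulk RNA, fewer cells of a type and less RNA per cell cannot be told apart.

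MicroRNAs act as guides for Argonaute proteins, which bring them to matching sites, mostly in the 3′ untranslated region (3′ UTR) of mRNAs, and there speed mRNA decay or hold back translation. The match that matters most pairs with the seed, the bases next to the 5′ end of the microRNA. miR-122 is the most abundant microRNA of hepatocytes, where it is known for its hold on lipid, iron and glucose metabolism genes and as a host factor of hepatitis C virus. Its reported targets span glycolytic enzymes, amino acid transport, the cytoskeleton and transcription factors. A microRNA that acts on translation alone would leave no mark in mRNA counts.

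The comparison asked whether reported targets were lower in miR-122-5p libraries than in control libraries. The mature sequence of the microRNA is shown because all sites below are matches to its seed. hsa-miR-122-5p (22 bases, RefSeq, GRCh38.p14, chr18:58451088-58451109, plus strand) reads 5′ to 3′ with its seed, bases 2 to 8, in capitals:
hsa-miR-122-5p: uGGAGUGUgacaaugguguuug

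A 3′ UTR site is named by the length of its match. The words searched on the transcript strand were ACACTCCA (8mer), ACACTCC (7mer-m8), CACTCCA (7mer-A1) and CACTCC (6mer), each site being placed in its strongest class, since the shorter words lie within the 8mer. The longest annotated 3′ UTR in GENCODE 29 held 70 such matches over the 32 genes, of which 16 were 8mers, 18 were 7mer-m8, 15 were 7mer-A1 and 21 were 6mers. By strongest match, 14 genes held an 8mer (43.8%, against 3.49% of the 12890 tested genes with an annotated 3′ UTR), 10 a 7mer-m8 (31.2%, against 6.27%), 6 a 7mer-A1 (18.8%, against 15.95%) and 1 a 6mer, and 1 had no match. Among all tested genes with a 3′ UTR of 1138 to 3998 bases, between the quartiles of the 32 genes, 3.41% held an 8mer and 7.07% a 7mer-m8. Reported targets are often picked with the help of such matches, so this excess is a property of the set and no result of the transfection. The sites below, in GRCh38 coordinates and with the match in capitals, are those of the genes that the results turn on, first of genes lower with miR-122-5p.
NT5C3A, 7mer-m8, chr7:33014537-33014561, minus strand: tccacctctctcaacACACTCCtca
CLIC4, 8mer, chr1:24841166-24841190, plus strand: ctctttaatttggagACACTCCAcc
IQGAP1, 7mer-m8, chr15:90500213-90500237, plus strand: gcacctcaatctgatACACTCCcga
PKM, 8mer, chr15:72199121-72199145, minus strand: gctgtcctgcagcaaACACTCCAcc
ALDOA, 8mer, chr16:30070224-30070248, plus strand: cccaggctgcccccaACACTCCAgg
GYS1, 8mer, chr19:48969144-48969168, minus strand: cacccagtccgccaaACACTCCAcc
P4HA1, 8mer, chr10:73008118-73008142, minus strand: gtttacaattgactaACACTCCAtg

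Sites of the same strength lay in genes that were not called or were higher, and these are shown for contrast.
SLC7A1, 8mer nearer the stop codon, chr13:29513380-29513404, minus strand: gtccatgaaattgtgACACTCCAcc
SLC7A1, 8mer nearer the 3′ end, chr13:29510361-29510385, minus strand: gtggtgcaagaagctACACTCCAtg
CCNG1, 8mer, chr5:163444487-163444511, plus strand: ttcagactagattgaACACTCCAga
TMED3, 7mer-m8, chr15:79423491-79423515, plus strand: atttaacaataaccgACACTCCtat
LAMC1, 7mer-m8, chr1:183145265-183145289, plus strand: gatgataccttaattACACTCCcgc

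**Figure D1:**
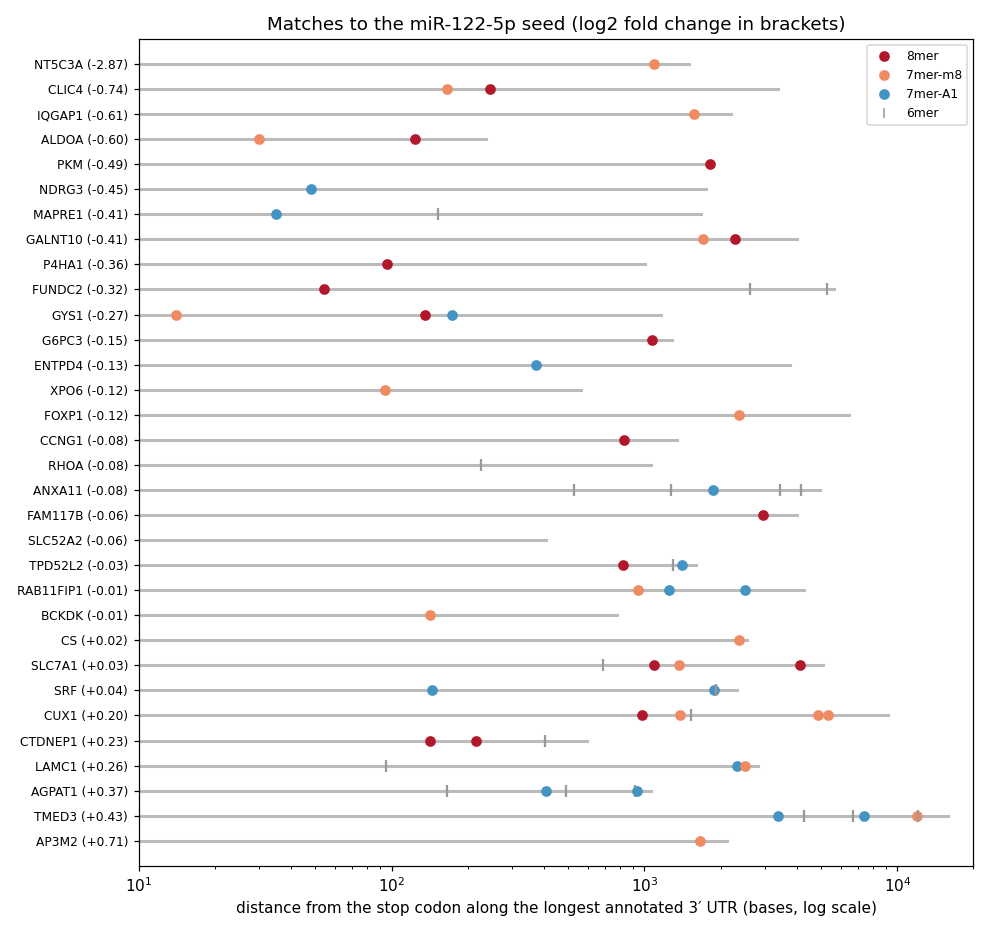
Matches to the miR-122-5p seed along the longest annotated 3′ UTR of each of the 32 genes, with the distance from the stop codon in bases on a log axis, grey lines for the length of the 3′ UTR, and colours for the class of match. Genes run from the lowest log2 fold change at the top (NT5C3A, -2.87) to the highest at the bottom (AP3M2, 0.71), and 8mers lie both near the top and among genes around 0, such as SLC7A1 with 2 of them.

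Libraries held 29473750 to 35684464 counts with miR-122-5p and 31019890 to 39468157 with control mimic. Values below are normalised counts (CPM, scaled by TMM factors). Each log2 fold change, of miR-122-5p over the control mimic, comes with its standard error (SE) from edgeR's quasi-likelihood fit over all tested genes. A gene is called where its Benjamini-Hochberg adjusted p in that fit is under 0.05. The mimic is not seen by these libraries: MIR122 and its host transcript MIR122HG had 0 counts in all 12, which allows at most 0.0775 to 0.101 CPM for counting error alone. Of 10 monocyte and macrophage markers 9 averaged above 1 CPM, and the exception was CD68 (0.239 CPM with miR-122-5p and 0.216 with control mimic). The summed level of the 10 was 2533 to 3063 CPM with miR-122-5p and 2625 to 2966 with control mimic. Single markers went both ways. PTPRC averaged 80.0 CPM with miR-122-5p and 185.4 with control mimic, and CSF1R 443.6 and 569.1. TYROBP averaged 1030 CPM with miR-122-5p and 836.6 with control mimic, and ITGAM 440.6 and 385.7. Of 8 hepatocyte markers APOB and FGB had 0 counts and APOA1 was the most abundant (12.3 CPM with miR-122-5p and 7.15 CPM with control mimic). Their summed level was 12.8 to 14.7 CPM with miR-122-5p and 6.81 to 9.29 CPM with control mimic, and their part in the results was not tested. Of 5 T cell markers CD3D, CD3E and CD2 had 0 counts and the summed level, nearly all of it TRAC, was 19.9 to 28.95 CPM with miR-122-5p and 19.2 to 23.9 CPM with control mimic. Of 5 fibroblast markers LUM had 0 counts, and the summed level, mostly COL1A1, was 3.14 to 4.18 CPM with miR-122-5p and 1.67 to 4.42 CPM with control mimic. Control libraries 1 and 6 stood apart from the other control libraries on principal components. Without control library 1, or without control library 6, the 32 genes again gave 11 lower and 4 higher calls.

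Of the 32 reported targets, 11 fell with miR-122-5p and 4 rose, and 17 were not called. In the background, 26.2% of all tested genes were lower, 24.3% were higher and 50.5% were called in either direction, so 34.4% lower and 12.5% higher among the 32 stand beside shares of the same order. The median log2 fold change was -0.08 over the 32 genes and 0.01 over all tested genes. A change of at least 2-fold was found in 1 of the 32 (3.12%), NT5C3A, against 9.98% of all tested genes. In 12 of the 32 genes the groups were apart, with no library of either inside the range of the other, 8 of them lower and 4 higher; in the background this held for 29.5% of tested genes, 16.1% lower and 13.4% higher.

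**Figure D2:**
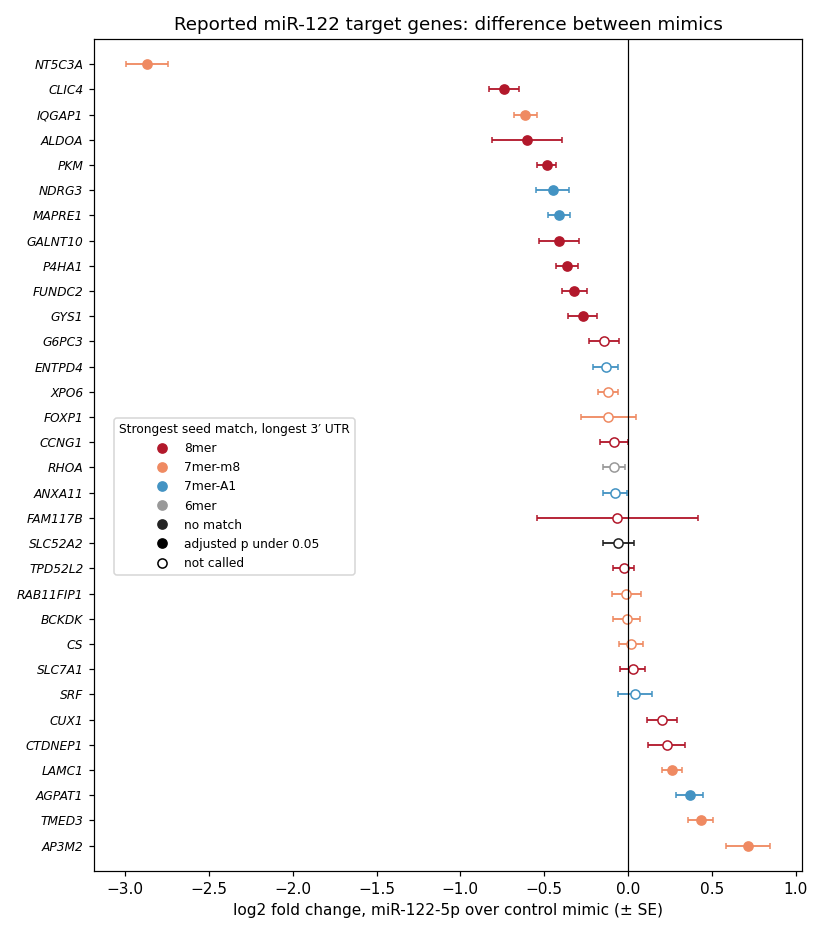
Log2 fold change of each of the 32 genes, miR-122-5p over control mimic, with bars of 1 SE, coloured by the strongest seed match in the longest 3′ UTR and filled where the adjusted p was under 0.05. The 11 lower genes span -2.87 to -0.27 and the 4 higher genes 0.26 to 0.71.

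Of the glucose metabolism genes PKM, GYS1 and ALDOA fell and G6PC3 was not called, beside 26.2% lower over all tested genes. The fall of ALDOA rests on uncertain counts. Gene positions are in GRCh38 from GENCODE 29. PKM (ENSG00000067225, chr15:72199029-72231822, minus strand) encodes pyruvate kinase, which makes pyruvate in the last step of glycolysis. Its level was 2834, 3075 and 3329 CPM (lowest, median and highest library) with miR-122-5p and 4148, 4373 and 4485 CPM with control mimic. Every miR-122-5p library lay below every control library. The log2 fold change of PKM was -0.49 ± 0.06 (adjusted p = 3.49e-07, edgeR), a fall by 28.6%, and PKM was the most abundant of the 32 per kilobase of annotated exon (361 CPM per kb with miR-122-5p and 506 with control mimic). GYS1 (ENSG00000104812, chr19:48968125-48993310, minus strand) encodes the glycogen synthase of muscle and most other tissues. It had 35.8, 38.9 and 43.0 CPM with miR-122-5p and 36.0, 47.5 and 54.1 CPM with control mimic. Its groups overlapped through 1 control library, number 5, at 36.0 CPM. GYS1 changed by -0.27 ± 0.09 (adjusted p = 0.0120, edgeR), and by -0.50 after the trends with transcript GC content and length were removed from each library. The trend with GC content differed between the groups.

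ALDOA (ENSG00000149925, chr16:30064164-30070457, plus strand) encodes aldolase A, which splits fructose bisphosphate in glycolysis. It had 7.60, 8.58 and 10.5 CPM with miR-122-5p and 4.14, 15.0 and 17.4 CPM with control mimic. Control library 1, at 4.14 CPM, lay below all miR-122-5p libraries while the other 5 control libraries lay above them. The log2 fold change was -0.60 ± 0.21 (adjusted p = 0.0207, edgeR), -0.79 without control library 1 and -1.51 with the GC slope of each library as a covariate (adjusted p = 0.00143, edgeR). The call ended without miR-122-5p library 2 (adjusted p = 0.0506), control library 3 (0.0607) or control library 4 (0.0516), and with DESeq2 (0.0625) or limma-voom (0.126). Over all settings tried its adjusted p ran from 1.30e-06 to 0.126. Exons of other genes overlap 53.5% of the exons of ALDOA, chiefly those of AC093512.2 on the same strand, which itself rose (4.71 ± 0.876 CPM with miR-122-5p and 3.08 ± 1.24 CPM with control mimic, SD, n = 6; log2 fold change 0.62 ± 0.23, adjusted p = 0.0269, edgeR). Reads in shared exons may have been counted for either gene or for none, so the ALDOA value may cover only part of its mRNA. Its mean of 13.4 CPM with control mimic was far below GAPDH (1254 CPM) and ENO1 (1901 CPM). Of the other glycolysis genes PFKM (3.2 CPM) and LDHB (5.4 CPM) were lower still with control mimic. The cause of the low ALDOA count was not tested, and its fall is uncertain for the whole mRNA.

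The enzymes G6PC3, CS and BCKDK were not called as counted. G6PC3, a glucose-6-phosphatase found in most cells, stood at 37.7 ± 3.79 CPM with miR-122-5p and 41.8 ± 5.10 with control mimic (SD, n = 6; log2 fold change -0.15, 95% interval -0.33 to 0.04). CS, the citrate synthase that opens the tricarboxylic acid cycle, was at 84.9 ± 7.07 CPM with miR-122-5p and 83.9 ± 6.71 CPM with control mimic (0.02, -0.13 to 0.17). BCKDK, the kinase that turns off branched-chain keto acid breakdown, was at 111.5 ± 10.6 CPM with miR-122-5p and 112.1 ± 12.4 CPM with control mimic (-0.01, -0.18 to 0.16). With the GC and length trends removed BCKDK was called lower (-0.30, adjusted p = 0.000393, edgeR). With the GC slope of each library as a covariate G6PC3 was called lower (-0.54, adjusted p = 0.00236) and CS higher (0.29, adjusted p = 0.0408).

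NT5C3A showed by far the widest gap of the set. The gene (ENSG00000122643, chr7:33014113-33062797, minus strand) encodes a pyrimidine nucleotidase that breaks down CMP and UMP, and is known as an interferon-induced gene. Its libraries gave 14.5, 16.8 and 21.6 CPM with miR-122-5p and 101.0, 136.3 and 148.9 CPM with control mimic. The highest miR-122-5p library was far below the lowest control library. NT5C3A fell by 86.3% (log2 fold change -2.87 ± 0.13, adjusted p = 1.17e-13, edgeR) and only 0.478% of tested genes had a lower log2 fold change. The interferon gene IFNB1 moved in the same libraries (7.68 ± 1.25 CPM with miR-122-5p and 115.1 ± 17.6 with control mimic, SD, n = 6; log2 fold change -3.90 ± 0.12); the part of interferon in the fall of NT5C3A was not tested. Its 3′ UTR held a single match, the 7mer-m8 shown above.

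Neither membrane transporter was called. SLC7A1, the cationic amino acid transporter CAT-1 and one of the earliest reported miR-122 targets, held 4 matches, 2 of them 8mers. It had 41.9, 50.0 and 53.4 CPM with miR-122-5p and 44.8, 47.7 and 53.9 CPM with control mimic. The groups overlapped almost wholly. Its log2 fold change was 0.03 ± 0.08 with a 95% interval of -0.13 to 0.18, so a fall larger than 0.13 lies outside the interval. SLC52A2, a riboflavin transporter, had no match in its longest 3′ UTR and an 8mer in another annotated 3′ UTR. It was at 85.6 ± 7.64 CPM with miR-122-5p and 89.0 ± 13.2 with control mimic (-0.06, -0.25 to 0.14), but had the highest transcript GC content of the set (65.8%), was called lower with the GC and length trends removed (-0.56, adjusted p = 2.34e-07, edgeR), and shares 44.2% of its exon bases with other genes. The lipid gene AGPAT1, an acyltransferase of phospholipid and triglyceride synthesis, rose. It had 25.8, 27.2 and 29.01 CPM with miR-122-5p and 18.2, 21.4 and 24.00 CPM with control mimic, without overlap (0.37 ± 0.08, adjusted p = 0.000723, edgeR). Other genes overlap 30.2% of the exons of AGPAT1.

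Among cytoskeleton and matrix genes 4 fell, 1 rose and RHOA was not called, beside 26.2% lower and 24.3% higher over all tested genes. CLIC4 (ENSG00000169504, chr1:24745357-24844324, plus strand) encodes a chloride intracellular channel protein. It had 189.1, 200.9 and 245.5 CPM with miR-122-5p and 292.6, 335.0 and 432.9 CPM with control mimic. The groups were apart, although miR-122-5p library 6 and control library 1 were each high within their own group. CLIC4 changed by -0.74 ± 0.09 (adjusted p = 4.72e-07, edgeR), by -0.39 after the GC and length trends were removed, and by -0.26 with the GC slope of each library as a covariate, which ended its call (adjusted p = 0.0504). IQGAP1 (ENSG00000140575, chr15:90388218-90502243, plus strand) encodes a scaffold that binds Rac, Cdc42 and actin. It had 141.0, 151.5 and 178.7 CPM with miR-122-5p and 224.6, 234.6 and 257.8 CPM with control mimic. Again no library of one group reached the other. The log2 fold change of IQGAP1 was -0.61 ± 0.07 (adjusted p = 2.09e-07, edgeR), and -0.40 and -0.41 under the 2 GC adjustments, where it was called as well.

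MAPRE1 encodes EB1, which tracks growing microtubule ends, and P4HA1 a prolyl hydroxylase of collagen. MAPRE1 had 105.4, 114.0 and 127.0 CPM with miR-122-5p and 139.6, 152.2 and 162.4 CPM with control mimic (-0.41 ± 0.07, adjusted p = 2.14e-05, edgeR). P4HA1 had 143.6, 164.2 and 176.4 CPM with miR-122-5p and 190.5, 209.2 and 229.6 CPM with control mimic (-0.36 ± 0.07, adjusted p = 0.000118). Both were apart between groups, and both became smaller with the GC and length trends removed: MAPRE1 to -0.22, still called, and P4HA1 to -0.10 (adjusted p = 0.178, edgeR), not called. With the GC slope covariate neither MAPRE1 (-0.19, adjusted p = 0.163) nor P4HA1 (-0.20, adjusted p = 0.198, edgeR) was called. LAMC1, a laminin chain of basement membranes, rose. It had 135.4, 139.6 and 151.5 CPM with miR-122-5p and 112.0, 119.0 and 122.2 CPM with control mimic, without overlap (0.26 ± 0.06, adjusted p = 0.000943, edgeR). The GC slope covariate ended the call of LAMC1 (0.24, adjusted p = 0.0824, edgeR). RHOA, the small GTPase that sets actin contractility, was second per kilobase of exon at 342 CPM per kb with miR-122-5p and 362 with control mimic. It was not called (882.6 ± 35.9 CPM with miR-122-5p and 935.5 ± 82.2 CPM with control mimic, SD, n = 6; -0.08, 95% interval -0.22 to 0.05) and held a 6mer as its only match.

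Genes of membrane traffic and organelles went both ways. AP3M2, a subunit of the AP-3 adaptor that sorts cargo to lysosomes, had 5.24, 5.99 and 6.35 CPM with miR-122-5p and 2.86, 3.59 and 4.35 CPM with control mimic. No values were shared. This was the highest log2 fold change of the 32 (0.71 ± 0.13, adjusted p = 0.000119, edgeR), on low counts of 186 to 225 per miR-122-5p library and 99 to 159 per control library. TMED3, a cargo receptor between endoplasmic reticulum and Golgi, had 175.6, 190.8 and 232.8 CPM with miR-122-5p and 132.5, 146.3 and 166.1 CPM with control mimic (0.43 ± 0.08, adjusted p = 6.86e-05, edgeR). It rose although its longest annotated 3′ UTR, 15928 bases, held 6 matches, the most of any of the 32; the nearest lies 3359 bases past the stop codon, and which 3′ UTR these cells use was not measured.

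GALNT10, an enzyme that starts O-linked glycans in the Golgi, had 6.73, 7.59 and 10.3 CPM with miR-122-5p and 9.38, 10.3 and 12.5 CPM with control mimic. The overlap came from 1 miR-122-5p library, number 4, at 10.3 CPM. GALNT10 changed by -0.41 ± 0.12 (adjusted p = 0.00548, edgeR). FUNDC2, an outer mitochondrial membrane protein, had 63.0, 66.4 and 72.2 CPM with miR-122-5p and 77.5, 79.6 and 95.2 CPM with control mimic (-0.32 ± 0.07, adjusted p = 0.000971, edgeR), without overlap, but was at -0.09 (adjusted p = 0.265) with the GC and length trends removed. The remaining 4 were not called. ENTPD4, a Golgi nucleotidase, was at 31.8 ± 3.22 CPM with miR-122-5p and 34.9 ± 1.34 CPM with control mimic (SD, n = 6 in each group; log2 fold change -0.13). XPO6, the nuclear exporter of actin, was at 69.4 ± 3.13 CPM with miR-122-5p and 75.4 ± 3.18 CPM with control mimic (-0.12). RAB11FIP1, a recycling endosome effector with 24.8% of its exons overlapped by other genes, was at 23.4 ± 1.99 CPM with miR-122-5p and 23.6 ± 2.66 CPM with control mimic (-0.01). TPD52L2 was at 166.7 ± 7.38 CPM with miR-122-5p and 169.7 ± 11.1 CPM with control mimic (-0.03). The groups overlapped in all 4. XPO6 and TPD52L2 were called lower with the GC and length trends removed (-0.21, adjusted p = 0.00240, and -0.15, adjusted p = 0.0354, edgeR).

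Of 8 genes of transcription, cell cycle and signalling, 1 fell, beside 26.2% lower over all tested genes. NDRG3, a hypoxia-linked protein of the NDRG family, had 8.54, 9.68 and 11.6 CPM with miR-122-5p and 11.7, 13.4 and 15.1 CPM with control mimic. The highest miR-122-5p library lay just under the lowest control library. NDRG3 changed by -0.45 ± 0.10 (adjusted p = 0.000707, edgeR). CCNG1, cyclin G1, a p53-induced gene and a long-known miR-122 target in liver cancer cells, had 85.2, 87.2 and 91.2 CPM with miR-122-5p and 76.7, 94.8 and 112.4 CPM with control mimic. The miR-122-5p values lay within the control range, and the log2 fold change was -0.08 (95% interval -0.26 to 0.09). With the GC and length trends removed the sign of CCNG1 turned and it was called higher (0.23, adjusted p = 0.00329, edgeR), and it was 0.26 and not called with the GC slope covariate.

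The transcription factor SRF, which drives actin and immediate early genes, was at 103.2 ± 4.21 CPM with miR-122-5p and 100.3 ± 20.4 with control mimic (SD, n = 6; 0.04, 95% interval -0.17 to 0.25). It was called lower under both GC adjustments (-0.25, adjusted p = 0.00369, and -0.52, adjusted p = 0.00161, edgeR). CUX1, a homeodomain repressor, had an 8mer and 3 7mer-m8 sites, and stood at 22.2 ± 2.50 CPM with miR-122-5p and 19.3 ± 1.57 CPM with control mimic (0.20, adjusted p = 0.0690, edgeR). It was called higher without miR-122-5p library 1 (0.25, adjusted p = 0.0212) or control library 2 (0.23, adjusted p = 0.0438). Its adjusted p ran from 0.0188 to 0.526 over the settings tried. CTDNEP1, a nuclear envelope phosphatase with 2 8mers, was at 19.6 ± 1.41 CPM with miR-122-5p and 16.7 ± 3.16 CPM with control mimic (0.23, adjusted p = 0.0859, edgeR), and was called higher without control library 2 (0.32, adjusted p = 0.0183); its adjusted p ran from 0.0183 to 0.929 over the settings tried. Other genes overlap 31.9% of the exons of CTDNEP1. With library totals in place of TMM factors both CUX1 and CTDNEP1 were called higher as well. FOXP1, a forkhead repressor of macrophage differentiation, was at 4.72 ± 1.17 CPM with miR-122-5p and 5.13 ± 0.762 CPM with control mimic (log2 fold change -0.12). ANXA11, a calcium-dependent membrane-binding annexin, was at 582.0 ± 46.6 CPM with miR-122-5p and 614.7 ± 55.9 CPM with control mimic (log2 fold change -0.08). FAM117B was at 0.311 ± 0.133 CPM with miR-122-5p and 0.328 ± 0.176 CPM with control mimic. FOXP1 and ANXA11 differed by less than the spread between libraries as counted, and ANXA11 was called lower with the GC slope covariate (-0.43, adjusted p = 0.00105, edgeR). FAM117B had 4 to 15 counts per miR-122-5p library and 2 to 16 per control library, and its interval of -1.06 to 0.93 spans every log2 fold change of the set but that of NT5C3A, so a change of their size was not detectable at this depth.

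**Figure D3:**
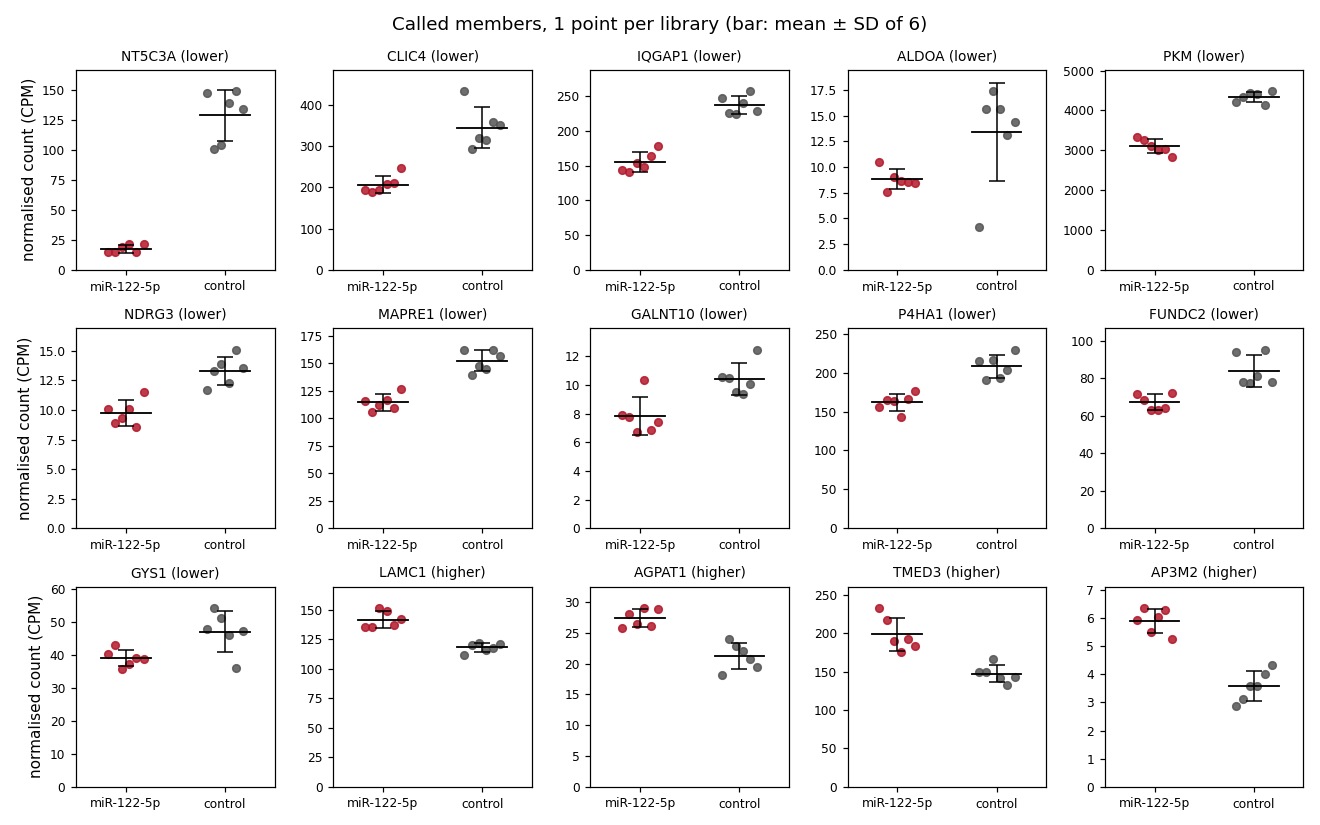
CPM in each library for the 15 called genes, with miR-122-5p on the left of each panel, the control mimic on the right, and a line and bar for the mean and SD of 6 libraries; every axis starts at 0. In 12 panels the groups are apart, and they overlap in ALDOA (control library 1 at 4.14 CPM), GALNT10 and GYS1.

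The falls were then read against the seed matches. Among the 14 reported targets holding an 8mer, 7 fell and 0 rose, with a median log2 fold change of -0.21 (11 of 14 below 0). The 450 tested genes that hold an 8mer gave 31.6% lower, 21.8% higher and a median of -0.08. Of the 10 genes with a 7mer-m8 as the strongest match 2 were lower and 3 higher (median -0.01), against 31.9% lower and 24.9% higher and a median of -0.04 among 808 tested genes of that class. Of the 6 with a 7mer-A1 2 were lower and 1 higher (median -0.11), and in the 2056 tested genes of that class 30.6% were lower and 21.5% higher (median -0.04). The 1829 tested genes with a 6mer as the strongest match had 24.6% lower and 31.5% higher (median 0.07). Tested genes with no match had 28.7% lower and 26.9% higher (median 0.00). With the GC and length trends removed the 14 genes with an 8mer gave 6 lower and 2 higher calls and a median of -0.11, beside 25.8% lower, 18.9% higher and a median of 0.005 over all tested genes with an 8mer. With the GC slope covariate they gave 4 lower and 0 higher and a median of -0.26, beside 13.1% lower, 4.67% higher and a median of -0.06. Tested genes with no match gave 25.1% lower and 26.4% higher (median 0.025) with the GC and length trends removed. With the GC slope covariate those with no match gave 13.4% lower and 8.64% higher (median 0.002). These counts describe the set and were not tested.

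The calls were also counted by number of sites in the longest annotated 3′ UTR, as a description without a test. The 13 genes with 2 or more matches of 7 or 8 bases had 4 lower and 3 higher calls as counted (median 0.03). The 19 with fewer had 7 lower and 1 higher (median -0.12). With the GC and length trends removed the 13 gave 6 lower and 4 higher (median -0.01). The 19 then gave 8 lower and 2 higher (median -0.10). With the GC slope covariate the 13 gave 3 lower and 0 higher (median -0.195). The 19 then gave 6 lower and 1 higher (median -0.201). Median transcript GC content was 52.7% in the 13 and 45.8% in the 19. Shares over all tested genes by number of matches, or by match in the coding sequence, were not counted. The counts in this paragraph therefore have no background share beside them. NT5C3A, IQGAP1, PKM, NDRG3 and P4HA1 fell with 1 match each. The 6 genes with 4 to 6 matches of any class were ANXA11, SLC7A1, SRF, CUX1, AGPAT1 and TMED3, of which 0 were lower and 2 higher. A match in the coding sequence was present in 13 genes, of which 4 were lower and 1 higher (median -0.12, against -0.06 in those without), and the coding 8mers of GYS1 and CUX1 went with opposite signs of log2 fold change.

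Transcript GC content moved with the groups. The slope of log2 CPM on GC content per 10 percentage points, relative to the mean over libraries, was 0.03 to 0.23 in miR-122-5p libraries and -0.32 to 0.01 in control libraries. Over all tested genes, split into 5 equal bins of GC content, log2 fold changes had a median of -0.30 in the lowest bin (26.8 to 41.3%) and of 0.39 in the highest bin (58.4 to 84.3%). CLIC4, NT5C3A, P4HA1, CCNG1 and FOXP1 lie in the lowest bin, where 46.4% of all tested genes were lower and 6.50% higher. GYS1, BCKDK, SRF and SLC52A2 lie in the highest, where 7.73% were lower and 50.8% higher; GYS1 was lower and the other 3 were not called. PKM, ALDOA and GALNT10 lie in the bin below it (52.0 to 58.4%) and fell, in a bin whose median was 0.17 with 16.4% lower.

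**Figure D4:**
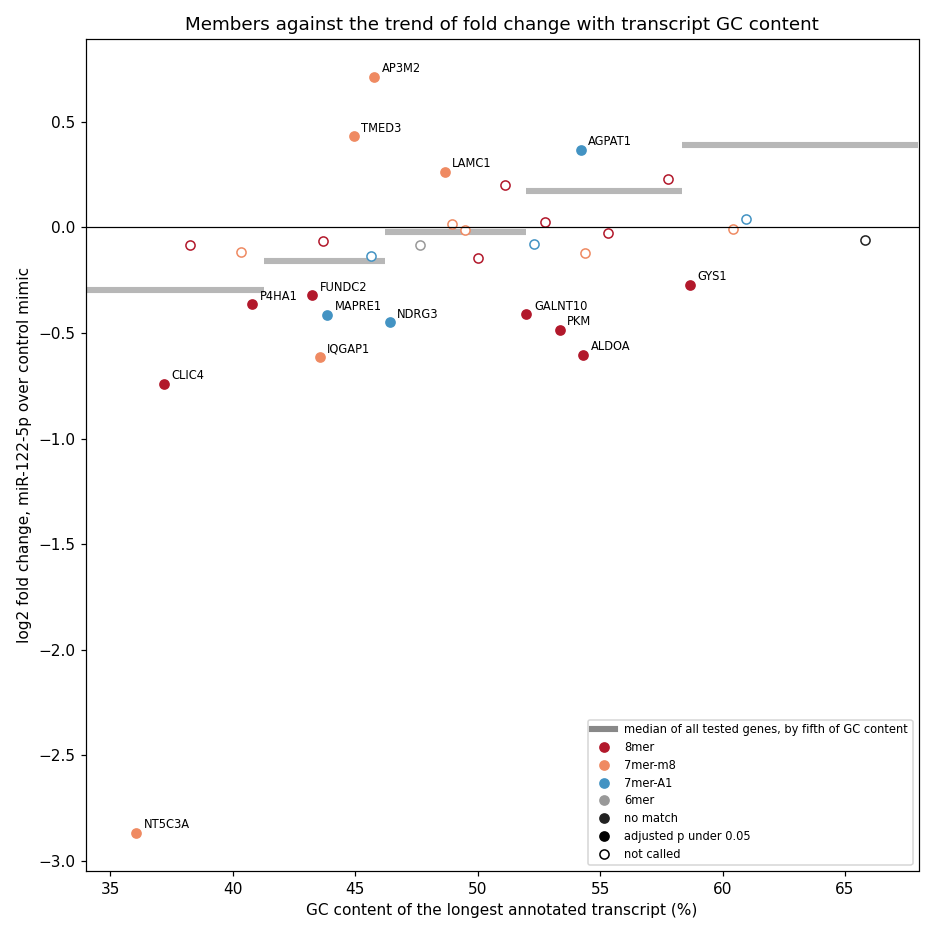
Log2 fold change of the 32 genes against the GC content of the longest annotated transcript, with grey bars for the median of all tested genes in each of 5 bins of GC content. PKM, ALDOA, GALNT10 and GYS1, called lower, lie below 0 where the median of all genes is 0.17 or 0.39. AGPAT1, called higher at 0.37, lies above the 0.17 of its bin. NT5C3A, at -2.87, lies far below the -0.30 of its bin.

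After the trends with transcript GC content and length were removed from each library, 14 of the 32 were lower and 6 higher, beside 23.5% and 23.3% of all tested genes. Of the 11 called lower before, 9 were called lower again, and P4HA1 and FUNDC2 were not; all 4 higher genes were again called higher. In the background 18.6% of tested genes were lower both before and after, and 16.8% higher. The 5 that were called lower only after it were SLC52A2, BCKDK, SRF, XPO6 and TPD52L2, and the 2 called higher only after it were CCNG1 and CUX1. The median of the 32 was -0.10, and that of all tested genes 0.03. With a covariate for the GC slope of the libraries, 9 of the 32 were lower and 1 higher, beside 12.2% and 7.23% of all tested genes; the covariate did not overlap between the groups, so this fit tells the 2 apart poorly. It ended the calls of CLIC4, NDRG3, MAPRE1, GALNT10, P4HA1 and FUNDC2 and of all 4 higher genes, and the 1 gene called higher was CS. NT5C3A, IQGAP1, ALDOA, PKM and GYS1 were lower in all 3 fits. The share of all tested genes lower in all 3 was not counted. These names describe single genes and are no result about the set. ALDOA lost its call in other settings: with DESeq2, limma-voom or the replicate block, and without some single libraries.

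**Figure D5:**
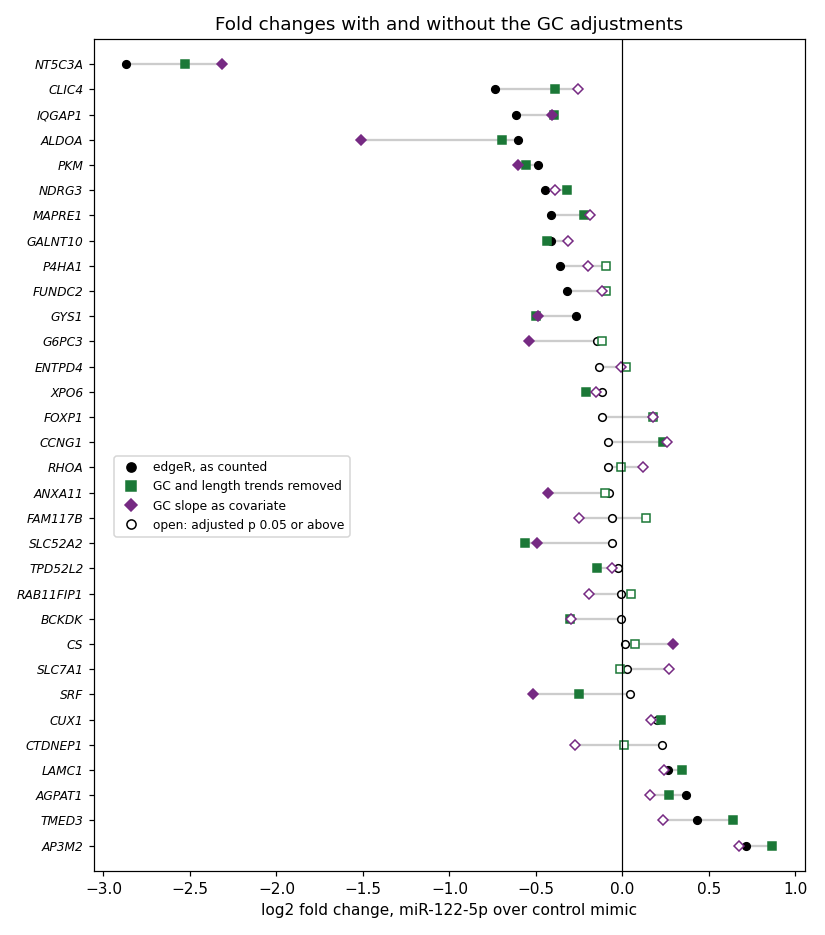
Log2 fold change of the 32 genes as counted (circles), with the GC and length trends removed (squares) and with a covariate for the GC slope (diamonds), filled where the adjusted p was under 0.05. PKM stays between -0.61 and -0.49, whereas SLC52A2 is at -0.06 as counted and at -0.56 and -0.50 with the adjustments.

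Other genes reported as miR-122 targets in the general literature gave 5 lower, 3 higher and 7 not called of 15 tested, with a median log2 fold change of 0.08. With the GC and length trends removed they gave 6 lower and 1 higher, with a median of -0.08. VEGFC, a lymphatic growth factor with no match in its longest 3′ UTR, fell, and was at 14.8 ± 2.72 CPM with miR-122-5p and 33.1 ± 3.85 with control mimic (SD, n = 6; -1.16 ± 0.11, adjusted p = 1.65e-08, edgeR). KLF6, a zinc finger factor reported as a target in hepatocytes, changed by -0.55 ± 0.08, the circadian gene NOCT by -0.54 ± 0.08 and the chromatin remodeller subunit SMARCD1 by -0.47 ± 0.10. These 4 were called under both GC adjustments as well.

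Genes of the pathways around the metabolic targets moved both ways. Of 19 other glycolysis genes 4 were lower and 5 higher (median 0.03), and 6 lower and 4 higher with the GC and length trends removed (median 0.01). The hexokinase HK2, which traps glucose in the cell, fell (-0.53 ± 0.07), while the aldolase paralogue ALDOC (0.67 ± 0.09), the enolase ENO2 (0.34 ± 0.06) and the phosphofructokinase PFKL (0.43 ± 0.09) rose. With those trends removed ENO2 was at 0.22, still called, and PFKL at 0.01, not called. With the GC slope covariate ALDOC was at 0.42, still called, and the call of ENO2 ended as well (0.27, adjusted p = 0.0760, edgeR). Of 11 other glycogen genes 3 were lower and 4 higher (median -0.0002), and 2 lower and 6 higher with the GC and length trends removed (median 0.15). The glycogen primer GYG1 fell (-0.74 ± 0.09), as did UGP2, which makes UDP-glucose (-0.57 ± 0.08, and -0.25 with the GC and length trends removed), and the glycogen phosphorylases PYGL (0.47 ± 0.07) and PYGB (0.37 ± 0.07, and 0.15 with those trends removed) rose. With the GC slope covariate GYG1 was at -0.46, still called, and the calls of UGP2 (-0.21, adjusted p = 0.149) and PYGB (0.19, adjusted p = 0.208, edgeR) ended.

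Among 8 genes of microRNA action 4 were lower and 1 higher as counted, and 1 lower and 2 higher with the GC and length trends removed. DICER1, which cuts microRNA precursors, changed by -0.74 ± 0.12, and by -0.42 with those trends removed. The Argonaute gene AGO2 changed by -0.28 ± 0.08, its paralogue AGO1 by 0.49 ± 0.11 and the Argonaute partner TNRC6B by -0.47 ± 0.13; the calls of AGO2 and TNRC6B ended with those trends removed (-0.13, adjusted p = 0.122, and -0.26, adjusted p = 0.0761, edgeR). With the GC slope covariate the calls of DICER1 (-0.33, adjusted p = 0.266) and AGO1 (0.35, adjusted p = 0.245, edgeR) ended too.

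Paralogues and family relatives of the 32 genes gave 17 lower, 15 higher and 15 not called of 47 tested, with a median of -0.03. With the GC and length trends removed they gave 10 lower and 16 higher, with a median of 0.04. ANXA1 (-0.70 ± 0.06), FOXP2 (-1.08 ± 0.12) and AGPAT3 (-0.46 ± 0.06) fell, and MAPRE3 (0.70 ± 0.09) rose. With those trends removed ANXA1 was at -0.41 and FOXP2 at -0.72, and with the GC slope covariate FOXP2 was at -0.47; all 3 values were called. Of the relatives of AGPAT1, which rose, AGPAT2 (0.37) and AGPAT4 (0.24) were called higher as counted and AGPAT3 and AGPAT5 (-0.31) lower. Of the relatives of MAPRE1, which fell, MAPRE2 (-0.40) was called lower and MAPRE3 higher. The calls of AGPAT2 (-0.17, adjusted p = 0.0512) and AGPAT5 (-0.07, adjusted p = 0.479, edgeR) ended with the GC and length trends removed, where MAPRE2 was at -0.20, and with the GC slope covariate those of AGPAT4 and MAPRE2 ended as well. AGPAT2, AGPAT4, AGPAT5 and MAPRE2 were chosen after their values were seen.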

How the data were processed

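Raw read counts per gene, not normalized, were deposited by the authors for 12 RNA-seq libraries. HISAT2 2.0.5, featureCounts 1.5.0-p3 and hg38 appear in the submitters' processing notes. The strand setting is not given in the sources used here, so antisense and overlapping genes cannot be told apart. Reads of near-identical copies are uncertain too. Members with named pseudogenes in GENCODE 29 are PKM, FUNDC2, CLIC4, ALDOA, MAPRE1, NT5C3A, CCNG1 and RAB11FIP1. Per the labels, libraries were made from total RNA with an NEBNext Ultra kit. Columns named nc were read as control mimic libraries, by name and number. GENCODE 29 gave symbols, positions, 3′ UTRs and transcript GC content.

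In R 4.3.3, genes passing filterByExpr (15471) were scaled by TMM and tested with edgeR 4.0.16 (quasi-likelihood, Benjamini-Hochberg over all tested genes, threshold 0.05), miR-122-5p over control. The fit was tested on simulated data. Standard errors were derived from the F statistic. No 2 libraries of a group agreed within sampling noise (chi-square over its degrees of freedom 7.97 to 75.2). Library totals of 29473750 to 39468157 gave a median standard error of 0.0822 over the 32 genes; intervals and zero-count limits (3 counts) cover counting error only where no replicates enter. Alternatives were DESeq2 1.42.0, limma-voom (limma 3.58.1), other scalings and filters, the replicate block, each library left out, a threshold of 0.01, and 2 GC adjustments: natural splines with 4 degrees of freedom on GC content and log length as offsets, and the GC slope of the libraries as covariate. Genes were named by a rule: every member, with library values for SLC7A1, CCNG1, ALDOA, PKM, GYS1, called members without overlap and up to 8 called members per direction, and up to 4 called genes of smallest p per list. The members and lists were chosen with earlier results of these data known. The result of 1 further gene list is not reported here.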

Additional observations from a re-analysis of the deposited data

Results flagged for a closer look

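In 6 of the 64 sets of 6 library values (32 genes, each in 2 groups), 1 library lay apart from the rest by Dixon's test on the gap to the nearest other value (95% level). Chance alone gives about 1 in 20 such sets. In miR-122-5p libraries, CLIC4 was at 245.5 CPM in library 6 (the others 189.1 to 209.3), CS at 98.5 CPM in library 6 (79.8 to 86.1), and GALNT10 at 10.3 CPM in library 4 (6.73 to 7.89). In control libraries, ALDOA was at 4.14 CPM in library 1 (13.1 to 17.4), SLC52A2 at 64.1 CPM in library 1 (87.4 to 99.6), and GALNT10 at 12.5 CPM in library 6 (9.38 to 10.5). Control library 1 also had the lowest GC slope of all libraries (-0.32).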

How the results depend on the processing

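Low counts limit FAM117B most, and exons shared with other genes limit what the counts of ALDOA, SLC52A2, CTDNEP1, AGPAT1 and RAB11FIP1 mean. The lower count of the 32 ran from 9 to 14 and the higher count from 1 to 6. The only value of either more than 1.5 times away was 1 higher with the GC slope covariate, under which all tested genes gave 1118 higher and 1887 lower. The replicate numbers did not pair the libraries (correlations of same-numbered deviations -0.105 to 0.0660, 1 of 6 libraries closest to its own number); with the replicate block 10 were lower and 4 higher (ALDOA was at -0.52, adjusted p = 0.0680 with edgeR), all genes gave 3702 higher and 3885 lower, and the median of the 32 was -0.08.

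Without 1 library the 32 gave 10 to 11 lower and 4 to 6 higher calls, all genes 3446 to 3846 higher and 3727 to 4033 lower, and a median of the 32 of -0.117 to -0.0664. That median was -0.0430 with library totals, -0.0628 with no low-count filter and -0.198 with the GC slope covariate; the cause was not tested. Over all settings and genes 626 of 703 values kept direction and side of the threshold, 20 lost and 14 gained a call in the same direction, and 43 changed direction, among them CCNG1 (1 setting) and SRF (2 settings) with a call. Direction changed as follows. With the GC and length trends removed: ENTPD4 0.0229, FOXP1 0.18, CCNG1 0.23, FAM117B 0.14, RAB11FIP1 0.0467, SLC7A1 -0.0134, SRF -0.25. With the GC slope covariate: FOXP1 0.18, CCNG1 0.26, RHOA 0.12, SRF -0.52, CTDNEP1 -0.27. With library totals: TPD52L2 0.0166, RAB11FIP1 0.0345, BCKDK 0.0351. With no low-count filter: RAB11FIP1 0.00977, BCKDK 0.0130; with the filter at 1 CPM in 6 libraries, which removed FAM117B: RAB11FIP1 0.000416, BCKDK 0.00326. BCKDK was 0.00247 with DESeq2 and with RLE size factors, and FAM117B 0.0935 with limma-voom. Without 1 library, FAM117B ran from -0.28 to 0.10, TPD52L2 from -0.0499 to 0.00463, RAB11FIP1 from -0.0425 to 0.0478, BCKDK from -0.0495 to 0.0441, CS from -0.0206 to 0.0624 and SRF from -0.0427 to 0.13. All of these genes were uncalled as counted. Of the 15 called genes 14 kept their call without any 1 library, ALDOA being the exception.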
